A study of Mus musculus with 6 samples.

Results

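Mitochondrial ribosomal proteins are described here as the genes whose symbols start with Mrpl or Mrps followed by a digit, found by matching the transcript identifier of each array probe to a gene table. The rule chose genes by name, not by their values, and gave 78 genes measured by 98 probes, of 19751 genes with a symbol on the array. Mrpl symbols, which name proteins first assigned to the large subunit, accounted for 49 genes, and Mrps symbols, first assigned to the small subunit, for 29. The study, titled as a work on the energy metabolism of mouse primordial germ cells, compared embryonic stem cells with the somatic cells of the fetal gonad. The 3 ESC samples are of the line VR15, male embryonic stem cells with the transgene Vasa::RFP, a red fluorescent reporter of a germ cell gene. The 3 soma samples are gonadal somatic cells from the genital ridges of male embryos at E13.5, on the background labelled MCH x C57BL6/J with the transgene Oct5<delta>PE-GFP. The labels name no treatment. The ESC samples all come from 1 cell line, and the soma samples are a mixture of the cell types of a fetal gonad. The groups thus differ in transgene, in culture and in cell makeup as well as in cell type, and may differ in strain. Per the series text, the 3 samples of a cell type are biological replicates, on which each p-value below rests.

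The mitochondrial ribosome sits at the inner membrane of the mitochondrion and translates the few proteins encoded by mitochondrial DNA, all of them core subunits of the respiratory chain and the ATP synthase. Its RNAs come from mitochondrial DNA, but all of its proteins are encoded in the nucleus, made in the cytosol and imported. Some of these proteins have counterparts in the bacterial ribosome, and others were added during the evolution of mitochondria. Loss of a member can impair respiration, and human mutations in several of them cause mitochondrial disease.

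Promoters are shown for the members that the results turn on. Mrps18b had the largest difference in the family, and Mrpl45 had the largest in the large subunit. Mrps11 was called lower in ESC, against the direction of most members. Each promoter is RefSeq's sequence on assembly GRCm38.p6, read 5′ to 3′ on the gene's own strand. It runs from 250 bases before to 50 bases after the gene's annotated start. Capitals mark exact matches, on either strand, to 5 short motifs known from promoters of nuclear genes for mitochondrial proteins or of genes in general. The motifs are the ETS motif CCGGAAG, the NRF1 motif GCATGCG, the YY1 motif AAGATGG, the SP motif GGGCGG and the E-box CACGTG. The Mrps18b window lies at chr17:35916391-35916690 on the minus strand and holds matches to ETS, NRF1 and SP. The Mrpl45 window at chr11:97315466-97315765, plus strand, has no match to any of the 5. The Mrps11 window at chr7:78782881-78783180, plus strand, matches YY1 and SP, and it also holds the annotated start of Mrpl46, which is read in the other direction and begins 42 bases away.
Mrps18b: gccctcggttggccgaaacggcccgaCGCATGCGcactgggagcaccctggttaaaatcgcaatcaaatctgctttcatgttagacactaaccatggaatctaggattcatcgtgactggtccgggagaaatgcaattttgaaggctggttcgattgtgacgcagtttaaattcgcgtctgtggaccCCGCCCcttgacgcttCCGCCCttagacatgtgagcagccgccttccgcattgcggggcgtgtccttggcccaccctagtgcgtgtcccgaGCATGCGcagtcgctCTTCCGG
Mrpl45: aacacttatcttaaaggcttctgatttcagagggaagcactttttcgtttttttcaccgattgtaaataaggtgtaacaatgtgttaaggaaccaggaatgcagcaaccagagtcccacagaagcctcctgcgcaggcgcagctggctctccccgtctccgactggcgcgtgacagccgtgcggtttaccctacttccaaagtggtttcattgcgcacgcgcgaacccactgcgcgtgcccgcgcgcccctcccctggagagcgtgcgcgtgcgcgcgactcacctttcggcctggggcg
Mrps11: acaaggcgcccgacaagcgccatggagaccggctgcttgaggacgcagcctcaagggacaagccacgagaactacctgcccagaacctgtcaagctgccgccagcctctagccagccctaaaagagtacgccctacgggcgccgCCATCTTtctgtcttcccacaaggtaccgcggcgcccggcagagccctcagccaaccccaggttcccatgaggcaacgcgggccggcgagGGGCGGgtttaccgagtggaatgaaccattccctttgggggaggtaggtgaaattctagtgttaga

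Gene expression was measured with 1-colour Agilent arrays, 1 array per sample, from 100 ng of total RNA. Levels are given as log2 scaled signal, which is the log2 of the scanner's processed signal less the array's 75th percentile, so that 0 is the level of the gene probe at that percentile. Levels of different probes cannot be set against each other, because probes bind with different strength. The 75th percentile itself was lower on the ESC arrays, at 983 ± 29.3 signal units (SD, n = 3), than on the soma arrays, at 1323 ± 72.6 (SD, n = 3), and the exact permutation p (two-sided) was 0.1, the smallest possible with 3 arrays against 3. The share of probes well above background ran from 56.0% to 63.2% per array, with 0 saturated spots. The number of arrays limits the precision. Each scan held arrays of 1 group, which means that the scan and the cell type cannot be told apart. Slide 2 held the 3 ESC arrays and soma 3, and slide 1 held soma 1 and soma 2.

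The labelled cell types were checked against marker genes. In ESC, 9 of 10 pluripotency markers were higher, and their summed linear scaled signal was 345 to 371 on the ESC arrays and 7.95 to 11.1 on the soma arrays. The exception was Nanog, whose probe was lower in ESC, with a difference of -1.50 ± 0.15 (SE) and a limma adjusted p of 0.000153. Markers of Sertoli cells (8 of 8 tested), fetal Leydig cells (4 of 4), interstitial stroma (6 of 6), erythroid cells (6 of 6) and macrophages (6 of 6) were all lower in ESC. Endothelial markers went both ways, with Pecam1 (0.94) and Tek (0.48) higher in ESC, Cdh5, Emcn and Tie1 lower and not well above background on any ESC array, and Kdr not past the test, and they summed to 4.99 to 5.39 in ESC and 4.73 to 6.63 in soma. The erythroid markers summed to 0.169 to 0.2003 on the ESC arrays and 814 to 862 on the soma arrays, with Alas2, Hba-a1, Hba-x and Hbb-y not well above background on any ESC array. Sertoli markers summed to 0.785 to 0.966 on the ESC arrays and 48.8 to 56.9 on the soma arrays, with Amh and Fgf9 not well above background on any ESC array. Germ cell markers split: the sums were 5.47 to 6.31 in ESC and 4.04 to 8.01 in soma, with Mael higher, Dazl and Nanos2 lower, and Ddx4, Dppa3 and Nanos3 not past the test. In such bulk samples fewer cells of a type and less RNA per cell cannot be told apart, and the part that cell makeup has in the differences below was not tested.

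Most mitochondrial ribosomal protein genes were higher in ESC than in soma. Of 77 members tested, 68 rose, 3 fell and 6 did not pass, at an adjusted p under 0.05 from limma with Benjamini-Hochberg adjustment over 19663 genes. Of those 19663, 14196 had a symbol, and the rest were counted by their array identifier alone. Shares of all genes tested include both kinds. In the same test 46.6% of all genes were higher in ESC and 38.3% lower, so calls were common in this comparison and the members' count is read against those shares. At least 2-fold higher values were found for 40 members, and 24.2% of all genes tested met that rule. No member was at least 2-fold lower. The median log2 difference of ESC minus soma was 1.03 over the members, with quartiles of 0.53 and 1.32, and 0.14 over all genes tested. Every member tested was well above background on all 6 arrays, so none entered the test through 1 group alone. The remaining member, Mrpl21, has 1 probe, which stayed near background on all 6 arrays, and it was not tested.

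The arrays separated the groups for nearly every member, as they did for most genes tested, so the direction is what sets the members apart. All 3 ESC arrays lay above all 3 soma arrays for 70 members, which 47.7% of all genes also did. All 3 ESC arrays lay below for 3 members, against 39.4% of all genes, and the ranges overlapped for 4. The median level over the members was 3.10, 3.04 and 3.08 on ESC 1 to 3 and 2.08, 2.11 and 2.13 on soma 1 to 3. The SD among ESC arrays had a median of 0.068 over the members and reached 0.15 for Mrpl15. Among soma arrays its median was 0.038 and its highest value 0.117, for Mrpl35. ESC 1 was the highest of the ESC arrays for 65 of 77 members and ESC 2 the lowest for 64. ESC 1 also had the highest median among ESC 1 to 3 for cytosolic ribosomal protein genes (7.33, 7.26 and 7.24) and complex I genes (4.61, 4.51 and 4.50). Over all genes tested it had the lowest (-0.64, -0.61 and -0.62). Whether this order is particular to the members was not tested.

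**Figure D1:**
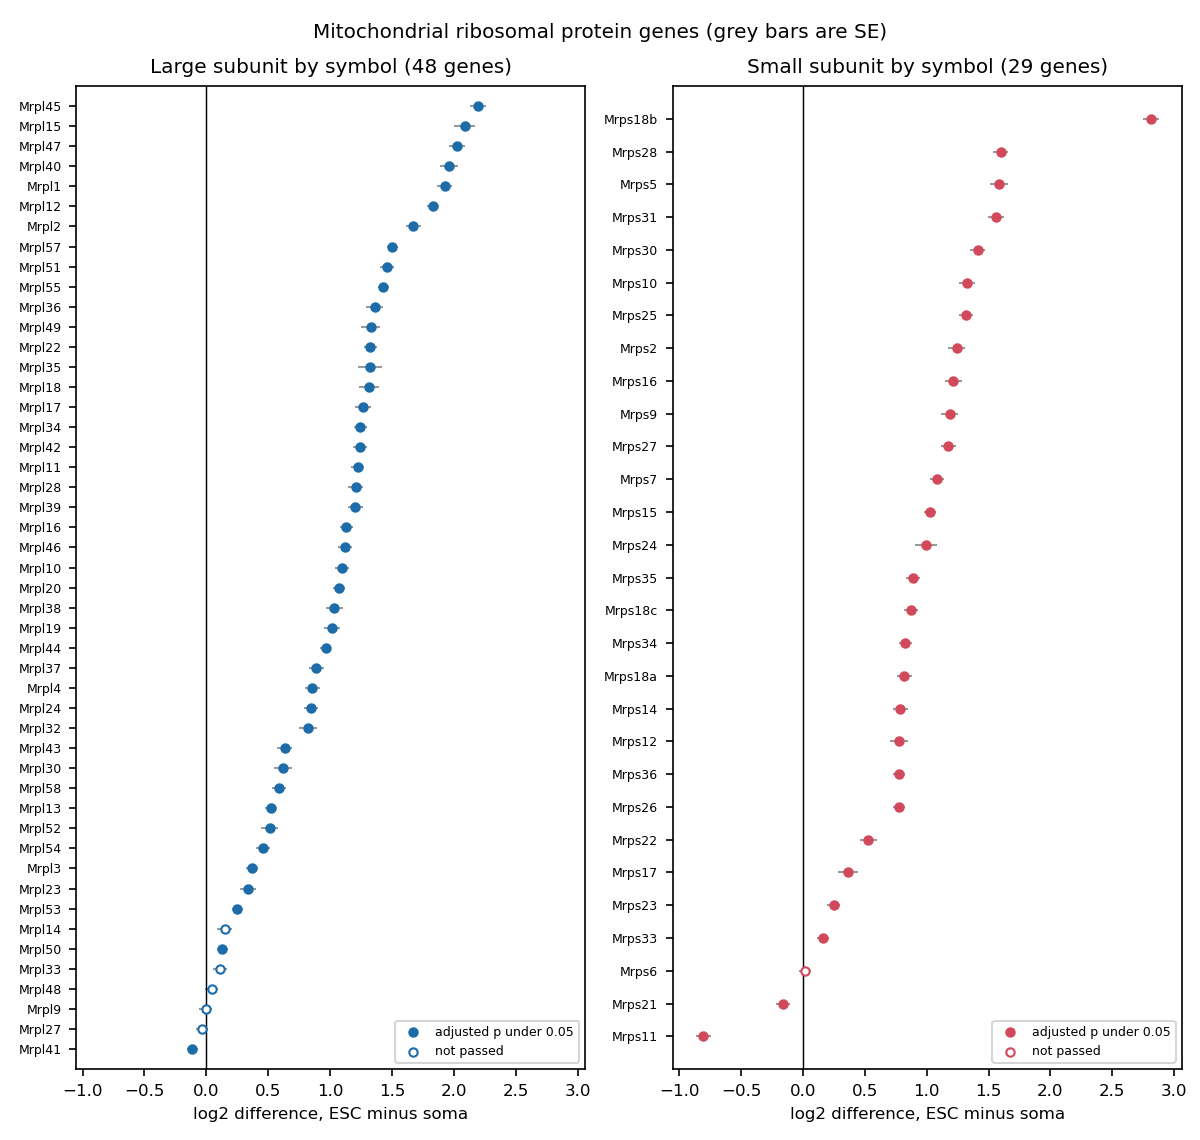
Log2 difference of ESC minus soma for each tested gene, with Mrpl symbols on the left and Mrps symbols on the right, where grey bars are the SE and open points did not pass an adjusted p of 0.05. Mrps18b stands at 2.81 and Mrps11 at -0.80, and 40 genes lie at or above 1.

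The large subunit joins amino acids into the new protein. By symbol, 42 of its 48 tested genes rose in ESC, 1 fell and 5 missed the threshold, with a median difference of 1.09 (quartiles 0.52 and 1.32). At least 2-fold higher values were found for 27 of them. Over all genes tested, 46.6% were higher and 24.2% at least 2-fold higher. The stalk, a flexible arm that recruits translation factors, has 3 proteins on the array, Mrpl10, Mrpl11 and Mrpl12, and all 3 rose. Mrpl12, the mitochondrial counterpart of bacterial L7/L12, had levels of 4.38, 4.29 and 4.35 on ESC 1 to 3 and 2.52, 2.49 and 2.50 on soma 1 to 3. The ESC arrays were tightly grouped and stood far above the soma arrays, a difference of 1.83 ± 0.05 (SE), or 3.56-fold. Mrpl11 and Mrpl10 differed by 1.22 ± 0.05 and 1.10 ± 0.06 (SE).

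Proteins around the polypeptide exit tunnel, where the new chain leaves the ribosome toward the membrane, rose in 7 of 7 genes. Over all genes tested, 46.6% were higher in ESC. Mrpl45 tethers the ribosome to the inner membrane so that proteins are inserted as they are made. Its levels were 4.24, 4.07 and 4.13 on ESC 1 to 3 and 1.95, 1.90 and 2.01 on soma 1 to 3. No soma array came near an ESC array, and the difference of 2.19 ± 0.07 (SE), 4.58-fold, was the largest in the subunit, with an adjusted p of 9.81e-07. Mrpl47, the counterpart of bacterial L29 at the tunnel exit, had 3.63, 3.47 and 3.50 on the ESC arrays and 1.55, 1.55 and 1.43 on the soma arrays. That was a difference of 2.02 ± 0.07 (SE). The other tunnel proteins were Mrpl22 (1.32), Mrpl39 (1.20), Mrpl44 (0.96), Mrpl24 (0.84) and Mrpl23, which had the smallest difference of the group at 0.33 ± 0.07 (SE). Mrpl23 was the 1 tunnel protein whose direction depended on the scaling, at -0.19 after quantile normalization.

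Around the peptidyl transferase centre, which forms the peptide bond, 3 of 4 genes rose, against 46.6% of all genes tested. Mrpl2, the counterpart of bacterial L2, had 4.92, 4.83 and 4.92 on ESC 1 to 3 and 3.22, 3.29 and 3.15 on soma 1 to 3, a difference of 1.67 ± 0.06 (SE). Mrpl16 differed by 1.13 ± 0.05 (SE) and Mrpl3 by 0.37 ± 0.05 (SE), although Mrpl3 stood at -0.027 after quantile normalization. Mrpl27, the counterpart of bacterial L27, did not pass. Its levels were 3.10, 3.03 and 3.05 in ESC and 3.08, 3.13 and 3.07 in soma, which overlap, with a difference of -0.032 ± 0.049 (SE) and an adjusted p of 0.561. Mrpl58, a hydrolase built into the ribosome that belongs to a family of factors for the rescue of stalled ribosomes, differed by 0.59 ± 0.06 (SE).

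Several large subunit members without a role on those lists were among the largest differences. Mrpl15, the counterpart of bacterial L15, had 2.69, 2.39 and 2.54 on the ESC arrays and 0.44, 0.45 and 0.46 on the soma arrays, a difference of 2.09 ± 0.08 (SE). Its ESC arrays were the most spread of any member and were still far above the soma arrays. Mrpl40, a protein specific to mitochondrial ribosomes, differed by 1.96 ± 0.07 (SE), and a further probe of it gave 1.98. Mrpl1, the counterpart of the protein of the L1 stalk, had 0.40, 0.26 and 0.25 in ESC and -1.64, -1.62 and -1.60 in soma, a difference of 1.92 ± 0.06 (SE). Mrpl36, the counterpart of a small zinc-binding bacterial protein, differed by 1.36 ± 0.07 (SE). Mrpl51 and Mrpl52, both specific to mitochondria, had 2 of the 3 brightest probes among the members and differed by 1.46 ± 0.06 and 0.51 ± 0.07 (SE), and Mrpl52 stood at -0.10 after quantile normalization. Mrpl35 and Mrpl37, which had 2 of the 3 dimmest, differed by 1.32 ± 0.09 and 0.89 ± 0.06 (SE).

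The small subunit binds the messenger RNA and reads its codons. By symbol, 26 of its 29 tested genes rose in ESC, 2 fell and 1 missed the threshold, with a median difference of 0.89 (quartiles 0.77 and 1.24). At least 2-fold higher values were found for 13 of them. Over all genes tested, 46.6% were higher and 24.2% at least 2-fold higher. The proteins at the decoding site and along the path of the messenger rose in 4 of 4 genes. Mrps5, the counterpart of bacterial S5 near the messenger's entry, had 1.60, 1.45 and 1.40 on ESC 1 to 3 and -0.15, -0.11 and -0.037 on soma 1 to 3, a difference of 1.58 ± 0.07 (SE). Mrps2 differed by 1.24 ± 0.07, Mrps24 by 0.995 ± 0.09 and Mrps12, the counterpart of the decoding protein S12, by 0.78 ± 0.07 (SE). Outside that list and besides Mrps18b, the largest in the subunit were Mrps28 and Mrps31, at 1.60 ± 0.06 and 1.56 ± 0.06 (SE). Among members in which human mutations cause a mitochondrial translation defect, Mrps16 differed by 1.22 ± 0.07, Mrps34 by 0.83 ± 0.06 and Mrps22 by 0.53 ± 0.07 (SE).

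The 3 Mrps18 genes are paralogs of 1 bacterial protein, and their products occupy different sites: Mrps18c and Mrps18b in the small subunit and Mrps18a in the large. Mrps18b had levels of 5.17, 5.04 and 5.08 on ESC 1 to 3 and 2.23, 2.26 and 2.37 on soma 1 to 3. The gap between the lowest ESC array and the highest soma array, 2.67, was many times the spread within either group. The difference was 2.81 ± 0.06 (SE), or 7.02-fold, with an adjusted p of 4.53e-07. A further probe for the gene gave 2.86. Mrps18c had 3.72, 3.57 and 3.64 in ESC and 2.76, 2.77 and 2.78 in soma, a difference of 0.88 ± 0.06 (SE). Mrps18a had 2.44, 2.38 and 2.52 in ESC and 1.62, 1.59 and 1.67 in soma, a difference of 0.82 ± 0.06 (SE). All 3 paralogs rose, where 46.6% of all genes tested did, and whether Mrps18b differed from its paralogs was not tested.

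**Figure D2:**
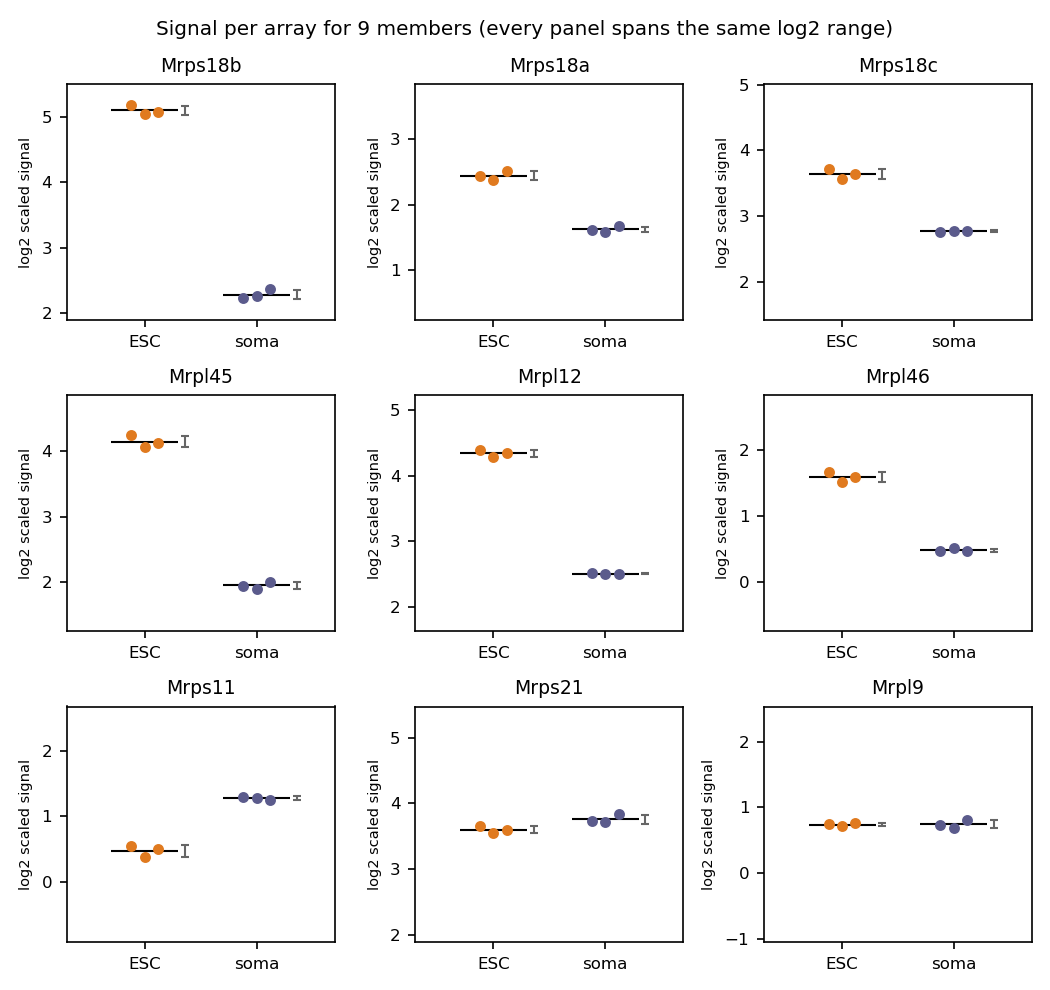
Log2 scaled signal on each array for 9 genes, with ESC at the left and soma at the right of each panel, where points are arrays, lines are means and the bars beside them are the SD (n = 3). Mrps18b and Mrpl45 have the widest separation, Mrps11 has its ESC arrays below its soma arrays, and the arrays of Mrpl9 overlap.

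Mrps11, the counterpart of bacterial S11 on the platform of the small subunit, went the other way. Its levels were 0.54, 0.37 and 0.50 on ESC 1 to 3 and 1.30, 1.28 and 1.25 on soma 1 to 3. The groups did not overlap, and the value fell in ESC by 1.75-fold (difference -0.80 ± 0.06, SE, adjusted p 4.2e-05). Mrps11 was called lower under each of the 20 processing settings tried, with differences of -1.03 to -0.61. It is measured by 1 probe, so no further probe bears on it. Mrps21, and Mrpl41 at its brightest probe, fell by far less. Their differences were -0.16 ± 0.06 and -0.11 ± 0.04 (SE), with adjusted p-values of 0.0407 and 0.0488. Mrpl41 was not called with any 1 array left out, nor was Mrps21 when any 1 of soma 1, soma 2, soma 3, ESC 2 or ESC 3 was left out. After scaling to the array median Mrpl41 stood at 0.081 and Mrps21 at 0.034. These values of Mrpl41 are those of its brightest probe. Its other probe fell by more, at -1.004 ± 0.099 (SE), with a limma adjusted p of 0.000135 over all kept probes.

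The starts of Mrps11 and Mrpl46 lie 42 bases apart and point away from each other, as the Mrps11 window above shows. Mrpl46, a large subunit protein specific to mitochondria, had 1.67, 1.52 and 1.60 on ESC 1 to 3 and 0.47, 0.51 and 0.46 on soma 1 to 3. It was higher on every ESC array than on any soma array, with a difference of 1.12 ± 0.06 (SE) and an adjusted p of 6.92e-06. The 2 genes of this head-to-head pair on chromosome 7 thus had calls in opposite directions.

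The 6 members that did not pass had differences between -0.032 and 0.15. They were Mrpl14, Mrpl33, Mrpl48, Mrpl9 and Mrpl27 of the large subunit and Mrps6 of the small. Mrpl9, with the difference nearest to 0, had 0.75, 0.71 and 0.76 in ESC and 0.73, 0.69 and 0.81 in soma, a difference of -0.0047 ± 0.053 (SE). Its 2 groups of arrays overlapped. A missed threshold does not show equal expression, and each of the 6 was called, higher or lower, under at least 1 other scaling.

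The differences of the 2 subunits overlapped widely. The quartiles of the large subunit, 0.52 and 1.32, enclosed those of the small, 0.77 and 1.24, and their difference was not tested, since members of 1 sample are not replicates. Some symbols do not match the known structure. Mrps30 (difference 1.41 ± 0.06, SE) and Mrps18a belong to the large subunit, and Mrps36 (0.78 ± 0.05, SE) is now known as a part of the 2-oxoglutarate dehydrogenase complex of the citric acid cycle. Sorted by structure, 44 of 50 large subunit genes were higher, with a median of 1.09, and 23 of 26 small subunit genes, with a median of 0.94. Members with a bacterial counterpart were higher in 38 of 45 genes, with a median of 1.09, and members specific to mitochondria in 29 of 31, with a median of 0.89. Beside these counts, 46.6% of all genes tested were higher, with a median of 0.14. Of the Mrps18 paralogs, Mrps18c was counted as the bacterial counterpart, and Mrps18a and Mrps18b, the added copies, with the members specific to mitochondria. By the brightest probe, the 10 mitochondria-specific small subunit genes were all higher, and 13 of the 16 bacterial-type ones. Among those 10, Mrps25 and Mrps33 each had another probe that was called lower.

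Of the members, 20 had several kept probes, and the probes of a gene did not always give like differences. The gap between the differences of a member's probes had a median of 0.28, and it was at most 0.5 for 13 members. Mrps25 had the largest gap, with 1.32 at its brightest probe and -0.54 at the other, both past the test. Mrps33 also had opposite calls, at 0.17 and -0.16, and it stood at -0.31 after quantile normalization and -0.057 after spike-in scaling. Mrps23 gave 0.25 and 1.21, and its brightest probe was called lower, at -0.11, after quantile normalization. Mrpl41 gave -0.11 and -1.004. The gap was also above 0.5 for Mrps14 (0.79 and -0.15), Mrpl49 (1.33 and 0.50), Mrps7 (1.09 and 0.33) and Mrpl50 (0.13 and 0.86). Levels above are those of the brightest probe, and with the mean of a gene's probes 67 members were higher and 3 lower, with a median of 0.94, and 46.3% of all genes were higher and 38.5% lower.

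The members are bright genes, and bright genes in general were shifted towards ESC. With all tested genes split by mean signal into 4 classes of equal size, the median difference was -0.29 in class 1, the dimmest, -0.12 in class 2, 0.10 in class 3 and 0.53 in class 4. Class 4 held 59 members and class 3 held 17. In class 4, 88.1% of members and 67.5% of all genes were called higher in ESC, and in class 3, 88.2% of members and 46.7% of all genes. At least 2-fold higher in ESC were 45.8% of members and 26.1% of all genes in class 4. In class 3 these shares were 70.6% and 23.0%. The members' median difference was 0.86 in class 4 and 1.10 in class 3. The mean signal includes the ESC values, so a gene that is higher in ESC is also brighter.

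Cytosolic ribosomal proteins and complex I subunits are 2 comparable groups of abundant, nuclear-encoded proteins. Of 81 cytosolic ribosomal protein genes, 74 were higher in ESC and 1 lower, and 10 were at least 2-fold higher, with a median of 0.56 (quartiles 0.44 and 0.76). Of 38 complex I genes, 33 were higher and 1 lower, and 6 were at least 2-fold higher, with a median of 0.59 (quartiles 0.36 and 0.82). Nearly all genes of each group were thus called higher, as were those of the mitochondrial ribosome, whose median of 1.03 was the largest of the 3. Over all genes tested, 46.6% were higher, 38.3% lower and 24.2% at least 2-fold higher. These lists are set side by side as counts and medians, and no test of their difference was made.

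**Figure D3:**
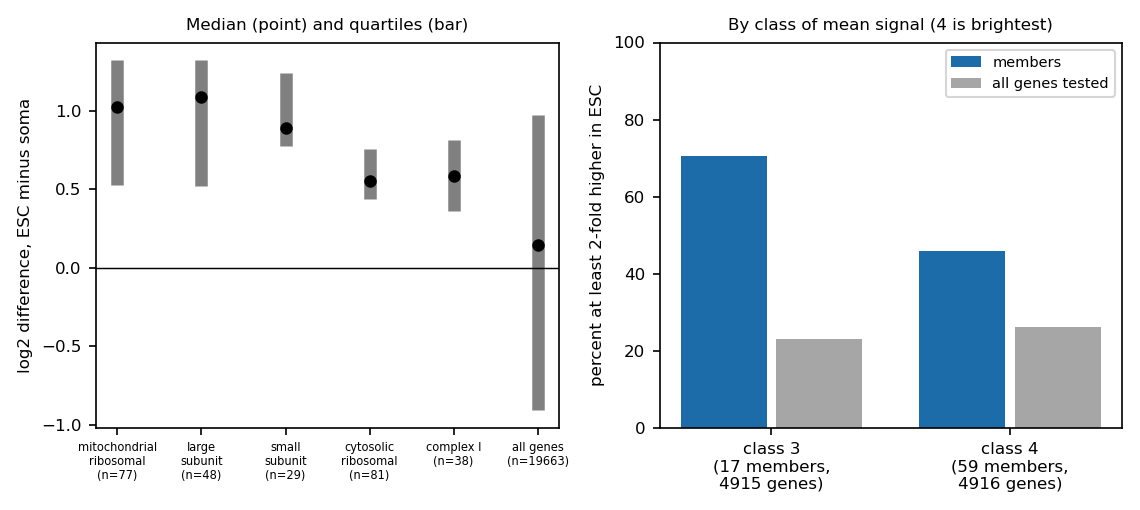
The left panel gives the median (point) and quartiles (bar) of the log2 difference of ESC minus soma for the mitochondrial ribosomal genes, their subunits, the cytosolic ribosomal proteins, complex I and all genes tested. The right panel gives the percent of genes at least 2-fold higher in ESC in classes 3 and 4 of mean signal, where members reach 70.6% and 45.8% and all genes 23.0% and 26.1%.

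Proteins of the mitochondrial ribosome that carry other symbols were also measured. Of 5 tested, all 5 were higher in ESC, with a median difference of 1.19, against 46.6% of all genes tested. Ptcd3, an RNA-binding protein of the small subunit, differed by 1.45 ± 0.07 (SE), Chchd1 by 1.20 ± 0.06, Aurkaip1 by 1.19 ± 0.07, and Dap3, a GTP-binding protein of the small subunit, by 0.996 ± 0.06. Gadd45gip1 was the smallest at 0.50 ± 0.05 (SE).

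Translation factors work with the ribosome in each round of protein synthesis. Of 19 mitochondrial translation factors 12 were higher (63.2%), 3 lower and 4 did not pass, with a median difference of 0.62. At least 2-fold higher were 5 of the 19 (26.3%). Over all genes tested, 46.6% were higher, 38.3% lower and 24.2% at least 2-fold higher, so the 2-fold share of these factors was close to that of all genes. Among elongation factors, which bring tRNAs to the ribosome and move it along the messenger, Tsfm differed by 1.82 ± 0.06 (SE), Gfm1 by 1.45 ± 0.06 and Tufm by 0.87 ± 0.06. Tsfm had 1.22, 1.20 and 1.22 on ESC 1 to 3 and -0.70, -0.60 and -0.54 on soma 1 to 3, which do not overlap. Gfm2, which splits ribosomes after termination, differed by 1.70 ± 0.05 (SE) at its brightest probe and by -1.02 at the other. Of the other factors counted as higher, Oxa1l, which inserts proteins into the inner membrane, gave 0.33 at its brightest probe and -2.34 at the other, and Mtif3, an initiation factor, gave 0.28 and -0.74, with both probes past the test in each gene. Lrpprc and Slirp, partners that stabilise mitochondrial messengers, differed by 1.002 ± 0.05 and 0.91 ± 0.08 (SE). Guf1, a GTPase related to bacterial LepA, fell by 1.17 on the log2 scale, with a further probe at 0.16 that did not pass. Mtrf1l, a release factor, and Gatc, a subunit of the enzyme that makes glutaminyl-tRNA, had differences of -0.71 ± 0.05 and -0.35 ± 0.08 (SE).

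Of 26 tested genes for assembly of the ribosome and modification of its RNA, 23 were higher, 2 were lower and 1 did not pass, with a median difference of 0.71. At least 2-fold higher were 9 of the 26 (34.6%). Over all genes tested, 46.6% were higher and 24.2% at least 2-fold higher. Trmt61b, an RNA methyltransferase, had -1.25, -1.39 and -1.43 on ESC 1 to 3 and -4.45, -4.34 and -4.86 on soma 1 to 3, a difference of 3.19 ± 0.15 (SE). Mtg1, a GTPase in assembly of the large subunit, differed by 1.74 ± 0.05 and Trub2, a pseudouridine synthase, by 1.58 ± 0.05 (SE). Tfb1m, which methylates the small ribosomal RNA, differed by 0.70 ± 0.05 (SE). Mettl15, a methyltransferase for the same RNA, and Mettl17, an assembly factor of the small subunit, were lower, at -0.72 ± 0.06 and -0.61 ± 0.12 (SE). Of 9 tested tRNA modification genes 7 were higher, 1 was lower and 1 did not pass, with a median of 0.96. Of these 9, 4 were at least 2-fold higher. Qtrt1, Pus1 and Trmt5 were the largest, at 1.76 ± 0.05, 1.57 ± 0.05 and 1.38 ± 0.05 (SE). Trmu, which thiolates mitochondrial tRNAs, fell in ESC, with levels of -1.23, -1.12 and -1.18 in ESC and -0.10, -0.15 and -0.28 in soma and a difference of -0.9997 ± 0.07 (SE).

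The 77 tested members lie on 17 chromosomes. Promoter windows of 300 bases were matched for 69 members, in 75 windows. Their median GC content was 58.7%, and that of the windows of all protein-coding genes 56.3%. The ETS motif was present in 37.7% of members, 12.9% of the 17492 protein-coding genes with a window and 17.9% of the 11158 such genes tested here. YY1 was present in 18.8% of members and 8.06% of tested coding genes, and NRF1 in 11.6% and 6.83%. The SP motif was found in 49.3% of members and 65.5% of tested coding genes, and the E-box in 7.25% and 11.4%. Within the family, the 25 tested members with an ETS match had a median difference of 0.77 and the 43 without it 1.13. Mrps18b, whose window above ends in an ETS match, and Mrpl45, whose window has none of the 5 motifs, were the 2 largest of all. A match describes letters and does not show that a factor binds.

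Many members start head to head with a neighbour. A protein-coding gene on the opposite strand started within 1000 bases for 24 of the 69 members (34.8%), against 8.48% of protein-coding genes and 11.6% of those tested. Outside the Mrps11 and Mrpl46 pair, 20 members had a tested neighbour that is not a member. Of those 20 neighbours 16 were higher in ESC, 2 lower and 2 did not pass, with a median difference of 0.85. Of all genes tested, 46.6% were higher and 38.3% lower, with a median of 0.14. In 14 pairs both genes were higher. Most members and most of these neighbours were higher, so such pairs would be common without any link. Whether the genes of a pair move together was not tested. Mrpl18 and Tcp1, a subunit of the cytosolic chaperonin, differed by 1.31 ± 0.08 and 1.27 ± 0.05 (SE). Mrps12 and Sars2, the mitochondrial seryl-tRNA synthetase, differed by 0.78 ± 0.07 and 0.70 ± 0.07 (SE). Mrpl43 and Twnk, the helicase that replicates mitochondrial DNA, differed by 0.63 ± 0.06 and 0.97 ± 0.05 (SE).

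In other pairs the genes differed in size or direction. Mrpl47 differed by 2.02 and its neighbour Ndufb5, a complex I subunit, by 0.37 ± 0.07 (SE). Calls were opposite in 2 of the 20 pairs. In the first, Mrpl2 stood at 1.67 and Klc4, a kinesin light chain, at -1.36 ± 0.06 (SE). In the other, Mrpl50 stood at 0.13 ± 0.05 and Zfp189, a zinc finger protein, at -0.74 ± 0.06 (SE). The call of Mrpl50 rests on the processing: it was called higher under 8 of the 20 settings, stood at -0.093 after spike-in scaling and was called lower, at -0.12, after quantile normalization. It also rests on the probe, as 0.13 is the difference at its brightest probe. Its other probe gave 0.86 ± 0.07 (SE), with a limma adjusted p of 4.07e-05 over all kept probes.

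**Figure D4:**
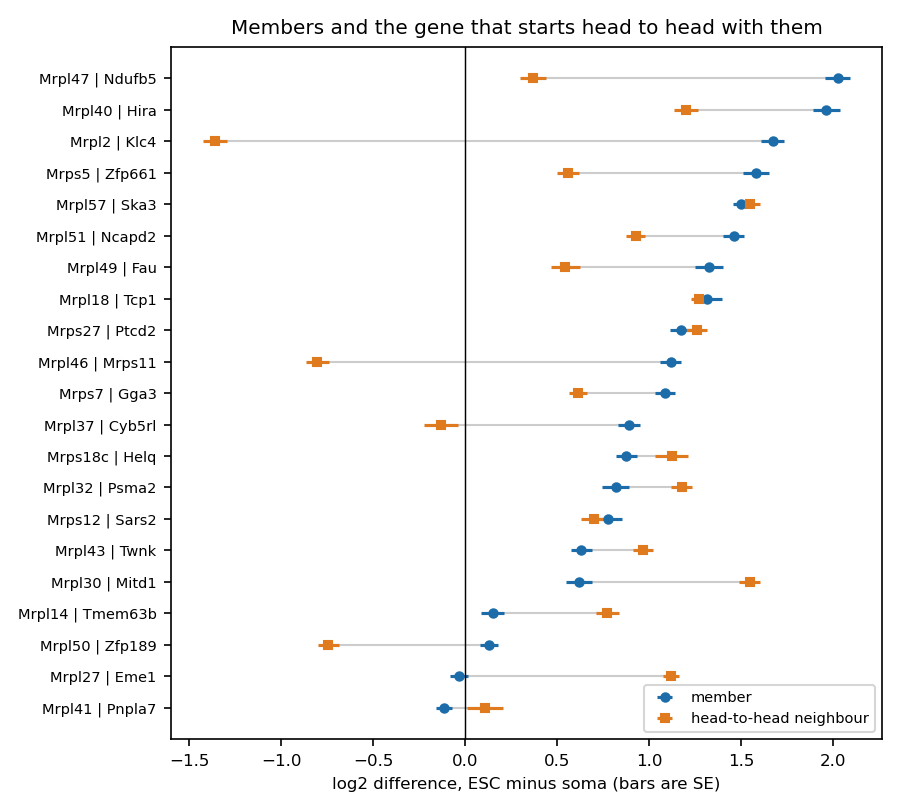
Log2 difference of ESC minus soma for members (circles) and the gene that starts head to head with them (squares), with SE as bars. The 20 pairs with a neighbour outside the family and the pair of Mrpl46 and Mrps11 are drawn, and the 3 pairs that lie on opposite sides of 0 with calls both ways are Mrpl2 with Klc4, Mrpl46 with Mrps11 and Mrpl50 with Zfp189, of which Mrpl2 and Mrpl46 were called higher under each of the 20 settings and Mrpl50 under 8.

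The size of the members' median moved with the scaling, and its sign did not. The median difference of the members was 0.77 after quantile normalization, 0.81 after spike-in scaling and 1.22 after scaling to the array median, where the median of all genes was 0.023, -0.079 and 0.34. Relative to all genes, the members' median was 0.88 higher as reported and 0.75 higher after quantile normalization. Spike-in scaling and scaling to the array median shift every gene of an array by the same amount, so they cannot change this gap. After quantile normalization 58 members were higher and 13 lower, against 42.5% and 41.2% of all genes. After spike-in scaling the counts were 61 and 7, against 39.2% and 43.4%, and after scaling to the array median 73 and 1, against 52% and 33.2%. With the slide as a fixed block, which sets the ESC arrays against soma 3 on slide 2, 66 members were higher and 2 lower, with a median of 0.98, against 43.2% and 35.8% of all genes. Across the settings, 58 members were called higher under each of the 20 settings, and 10 were called higher under some settings and lower under others.

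**Figure D5:**
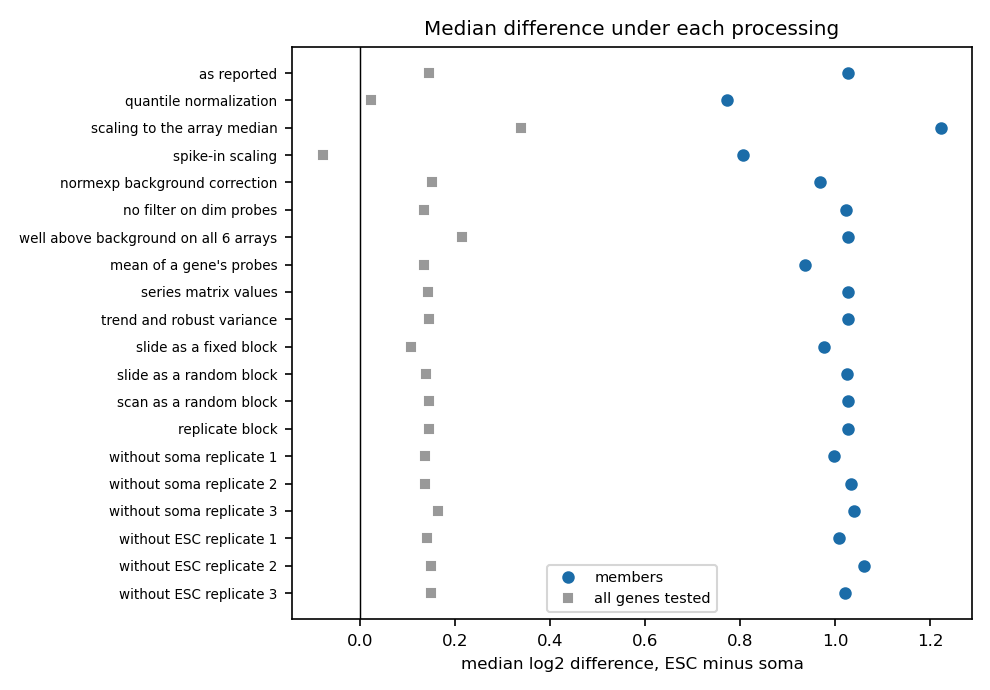
Median log2 difference of ESC minus soma over the members (circles) and over all genes tested (squares) under each processing setting, with the values as reported on top. The members' median stays between 0.77 and 1.22, and that of all genes between -0.079 and 0.34.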

How the data were processed

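RNA of 3 ESC and 3 soma samples was labelled with Cy3 and spike-in RNA and hybridised to 1 array each, per the labels' protocols. The deposited processed signal is an intensity that Feature Extraction 10.7.3.1 background-subtracted and did not scale between arrays, per the file headers. The authors' series matrix gives log2 values of unstated scale. At least 99.96% of its 39429 probes lay within 0.01 of the log2 processed signal less the array's 75th percentile and the probe's median, with column medians of 0.161, -0.0879 and 0.0634 for ESC 1 to 3 and 0.055, -0.25 and -0.0654 for soma 1 to 3.

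Spots of 1 probe were averaged without marked outliers. Probes well above background on all arrays of at least 1 group were kept, and the brightest of these stood for its gene. Symbols came from a RefSeq table of GRCm38.p6 and reached 66.1% of probes. The array's own grid names build mm9, per the file headers, and no coordinate of it was used. ESC minus soma was fitted with limma 3.58.1 in R 4.3.3 (two-sided, no covariate, Benjamini-Hochberg over 19663 genes), after tests on simulated data.

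Named genes were the 5 highest and 5 lowest members of each subunit, those with discordant probes or a listed role, the brightest and dimmest, some fixed by name, and the 3 largest differences each way in 4 related lists. Mrpl14, Mrpl18, Mrpl21, Mrpl43, Mrpl46, Mrpl49, Mrpl50, Mrpl53, Mrps7, Mrps14, Gadd45gip1, Mtif3, Oxa1l and the head-to-head neighbours were named after their values were seen. The members and lists were chosen with earlier results of these data known. Alternatives changed the scaling, background correction (normexp, offset 50, on the median signal), filter, choice of probe, source, variance model, blocks and arrays.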

Additional observations from a re-analysis of the deposited data

How the results depend on the processing

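The count of members higher in ESC and the count of all genes called kept within 1.5 times under each alternative: 58 to 73 members were higher. The count lower was 13 after quantile normalization, 7 after spike-in scaling, 1 after scaling to the array median, 1 with no filter on dim probes, and 1 to 2 with 1 array left out. The median difference of the members was 0.77 (quantile), 0.81 (spike-in), 1.22 (array median), 0.97 (normexp), 0.94 (mean of probes), 0.98 (slide as a fixed block) and 0.998 to 1.06 with 1 array left out. For the large subunit it was 0.86 (quantile), 0.86 (spike-in), 1.28 (array median), 1.02 (mean of probes) and 1.06 to 1.12 with 1 array left out, and for the small subunit 0.68, 0.67 and 1.09 under the 3 scalings in that order and 0.85 to 0.93 with 1 array left out. Quantile normalization turned the direction of 11 members. Of these 7 were called as reported, namely Mrpl23 (-0.19), Mrpl3 (-0.027), Mrpl50 (-0.12), Mrpl52 (-0.10), Mrpl53 (-0.11), Mrps23 (-0.11) and Mrps33 (-0.31), and 5 of the 7, all but Mrpl3 and Mrpl52, were then called lower. Scaling to the array median turned 4 members, of which Mrpl41 (0.081) and Mrps21 (0.034) were called as reported, and spike-in scaling 6, of which Mrpl50 (-0.093) and Mrps33 (-0.057) were. The other members turned by these scalings, and all those turned by any other alternative, were among the 6 that did not pass as reported. The 3 scalings moved the median of all genes by -0.12, 0.20 and -0.22, in that order, and the cause of the turned directions was not tested. The labels give both groups the same replicate numbers, but same-numbered arrays did not deviate together (correlations -0.047, 0.067 and 0.028), and the samples share only a number. With the replicate number as a block, 66 members were higher and 1 lower, with a median of 1.03. Groups of 3 arrays were not tested for single outlying arrays.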
